A study of Rattus norvegicus with 20 samples.

Results

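The matrix metalloproteases (MMPs), the ADAMTS proteases and their tissue inhibitors (TIMPs) were examined in rat femur. A probe set, the group of probes that reads 1 transcript on the array, was taken as a member when its annotated gene symbol began with Mmp, Adamts or Timp followed by a number. This gave 47 of the 31042 probe sets that were not controls, for 33 of 14217 genes named on the array: 24 probe sets for 17 Mmp genes, 15 for 12 Adamts genes and 8 for 4 Timp genes. No probe set of the procollagen N-proteinase group (Adamts2, Adamts3, Adamts14) or of Adamts13 was among them.

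Femora came from rats aged 4 weeks of 4 strains, with 5 rats and 5 arrays per strain. NP is the inbred alcohol-nonpreferring strain and P the inbred alcohol-preferring strain, both selected from Wistar stock. In NP.P the NP background holds the P copy of a chromosome 4 segment (4q22-q34), and in P.NP the P background holds the NP copy. Each congenic strain is 1 line, the labels name no treatment, and nothing in them says which rats shared a litter. RNA came from the proximal femur, a mixture of bone, marrow, cartilage and adhering tissue, in which fewer cells of a type and less RNA per cell cannot be told apart. Marker genes that had a probe set were counted against the filter on low values. Above it were 10 of 11 for osteoblasts and bone matrix, 12 of 12 for cartilage and 8 of 8 for fibroblasts and periosteum. So were 9 of 9 for skeletal muscle. Sost of the osteoblast and bone matrix list was below it, while Dmp1 and Mepe of that list were above it.

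MMPs are zinc proteases that cut collagens, gelatin, elastin and other matrix proteins outside the cell. In the growth plate they remove cartilage matrix ahead of the invading vessels, and in bone they act beside cathepsin K in turnover. ADAMTS enzymes carry thrombospondin repeats that hold them to the matrix; several cut aggrecan or versican, others cartilage oligomeric matrix protein (COMP), and others associate with fibrillin microfibrils. The 4 TIMPs bind the active site of MMPs, and Timp3 also inhibits aggrecanases of the ADAMTS family.

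Of the 33 genes, 9 lay on chromosome 8 in the RefSeq annotation of the rat build GRCr8, among them Mmp13, Mmp12, Mmp3, Mmp10, Mmp8 and Mmp7, which lie in 1 cluster. RefSeq sequences of the 250 bases before the gene start were given for 22 of the 33 genes, and those of 4 neighbours in the cluster are shown because these genes had different patterns over the strains and arrays below. Capitals mark 2 motifs, searched on both strands: the AP-1 motif TGANTCA (N is any base) and the RUNX motif ACCACA, which did not overlap in the sequences shown. AP-1 is the Fos and Jun dimer, and Runx2 is the osteoblast and hypertrophic chondrocyte factor of the RUNX family.
Mmp13, chr8:12782579-12782828, plus strand: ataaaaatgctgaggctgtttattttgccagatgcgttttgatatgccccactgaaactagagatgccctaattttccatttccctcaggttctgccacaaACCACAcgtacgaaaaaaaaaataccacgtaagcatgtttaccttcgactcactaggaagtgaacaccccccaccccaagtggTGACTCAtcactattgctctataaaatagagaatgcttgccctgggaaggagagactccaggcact
Mmp12, chr8:12866402-12866651, plus strand: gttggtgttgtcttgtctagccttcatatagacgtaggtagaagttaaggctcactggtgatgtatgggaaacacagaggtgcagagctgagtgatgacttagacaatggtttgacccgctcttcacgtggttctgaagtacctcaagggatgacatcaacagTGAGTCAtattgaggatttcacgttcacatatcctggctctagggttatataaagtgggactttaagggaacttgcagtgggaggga
Mmp3, chr8:12925031-12925280, plus strand: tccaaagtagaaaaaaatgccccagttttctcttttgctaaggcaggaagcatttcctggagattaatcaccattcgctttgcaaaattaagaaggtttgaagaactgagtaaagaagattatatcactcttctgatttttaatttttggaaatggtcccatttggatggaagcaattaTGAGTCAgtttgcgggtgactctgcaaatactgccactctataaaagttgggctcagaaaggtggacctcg
Mmp8, chr8:13008640-13008889, plus strand: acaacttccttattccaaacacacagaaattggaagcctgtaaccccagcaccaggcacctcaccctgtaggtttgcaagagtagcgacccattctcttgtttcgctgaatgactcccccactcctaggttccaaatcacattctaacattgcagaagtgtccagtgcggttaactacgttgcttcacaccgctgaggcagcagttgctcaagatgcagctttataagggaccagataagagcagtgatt
The AP-1 motif began 66 bases before the start in Mmp13, 87 in Mmp12 and 71 in Mmp3, and also 61 in Mmp10 and 80 in Mmp7, but was not found in this window of Mmp8. It was in 5 of the 22 member promoters (22.7%) and in 6.34% of all 33469 promoters of the same length. The RUNX motif was in 1 of the 22, Mmp13, 149 bases before the start, and in 14.5% of all promoters. These matches describe the letters in the window and say nothing of binding.

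Values are MAS5 signals, array intensities that the authors scaled to a common trimmed mean. Where a gene had several probe sets, the one of highest mean signal was read, and signals of different genes are not set against each other, since probes differ in their response. Tests were run on probe sets whose mean log2 signal reached the 40th percentile (169.7 as a signal). By this rule 37 of the 47 probe sets, for 26 genes, were tested: 13 Mmp, 9 Adamts and 4 Timp genes. Closest to this limit on the upper side were the third probe set of Mmp23 (geometric mean 222) and Mmp19 (224), and below it the second probe set of Mmp2 (166) and Mmp11 (154). The 7 genes below it at their only probe set were Mmp7, Mmp10, Mmp11, Mmp28, Adamts6, Adamts16 and Adamts19. All differences are log2 differences with their standard error from a model of the 4 strain means over the 20 arrays, and a call is an adjusted p (Benjamini-Hochberg over the 18625 probe sets tested) under the false discovery rate of 10%.

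NP replicate 2 and P replicate 2 stood apart from the other arrays. Their cartilage scores, the mean centred log2 value of 12 cartilage genes, were -0.65 and -1.58. P.NP replicate 2 followed at -0.43, and the other 17 arrays lay at -0.14 or above. The same 3 arrays had the highest skeletal muscle scores, at 0.40, 0.23 and 0.28. NP replicate 2 also had the lowest osteoclast score (-0.38) and the lowest osteoblast and bone matrix score (-0.28). P replicate 2 had the lowest value of its strain in 15 of the 26 genes, and NP replicate 2 in 9, which was the most of each strain. P.NP replicate 3 was also lowest in 9. NP replicate 2 was the highest of its strain in 8 genes, and P replicate 2 in 4. Their median log2 deviations from the strain mean were 0.014 and -0.14, so NP replicate 2 was not low over the members in general. Contrast calls of single members that changed without NP and P replicate 2, or without all 3, are given both ways.

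Across the 4 strains, 6 of the 37 member probe sets (16.2%) differed by the F test, against 18.2% of all probe sets tested, a share close to the background. They were Mmp2 (adjusted p = 0.0148), Adamts7 (0.015), Adamts4 (0.0161), Mmp23 (0.032), Adamts10 (0.0394) and Mmp12 (0.066). The spread within strains, as the SD of the log2 signal, ran from 0.0964 for Timp2 to 0.607 for Adamts8 over the 37 probe sets, with a median of 0.218 against 0.204 over all probe sets tested.

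More members were called by background than in any other contrast. The same held for all probe sets tested, of which 22.5% were called by background and 5.36% or fewer in each other contrast. The background contrast compares the 10 rats with the P background (P and P.NP) and the 10 with the NP background (NP and NP.P). In this contrast 9 of the 37 probe sets (24.3%), for 8 genes, were higher in the P background, where 11.1% of all probe sets tested were called higher. With all arrays no member was called lower, where 11.3% of all probe sets were. In either direction the members' share of 24.3% was therefore close to the 22.5% of all probe sets. At an unadjusted p under 0.05, limma gave 27.0% of the members and 30% of all probe sets. The 8 genes were the gelatinase Mmp2, its activator Mmp14, Mmp16, Mmp23, and Adamts4, Adamts7, Adamts9 and Adamts10. Of the 37 tested probe sets, 25 lay above 0 and 12 below, with a median of 0.069 against 0.017 over all probe sets, 53.9% of which lay above 0. The changes of the 8 genes ran from 1.14-fold for Mmp14 to 1.27-fold for Adamts7.

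**Figure D1:**
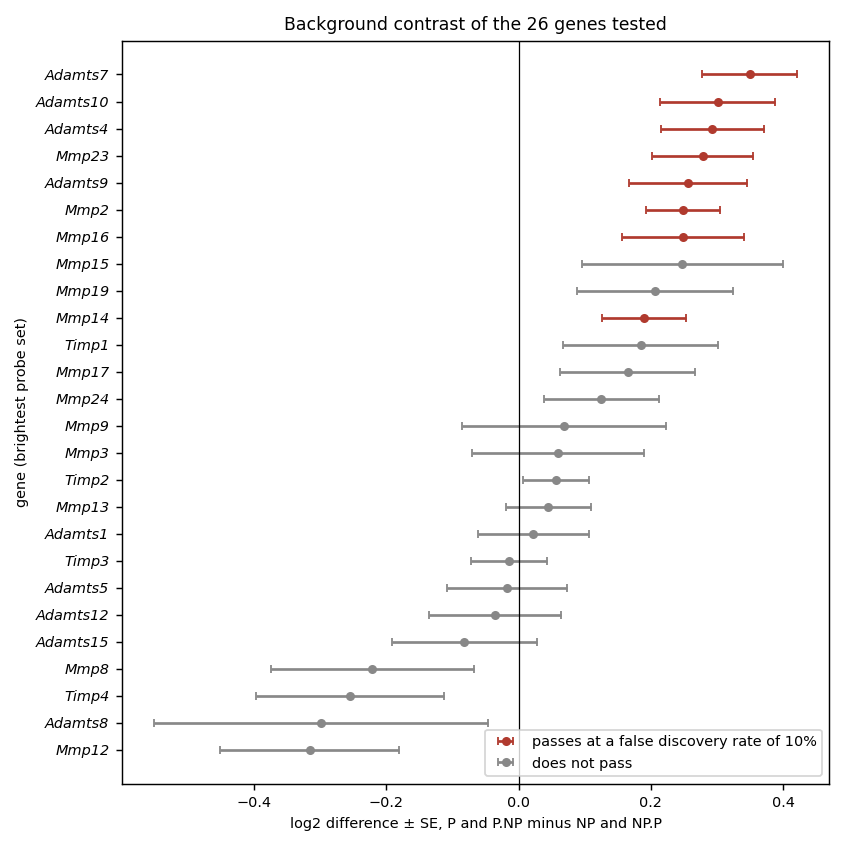
Log2 difference between the P background (P and P.NP) and the NP background (NP and NP.P), with its standard error as bars, for the 26 genes tested, 1 probe set per gene. The 8 genes in red passed at a false discovery rate of 10% and all lay above 0, from 0.19 for Mmp14 to 0.35 for Adamts7; Mmp12, at -0.32, lay lowest and did not pass.

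Mmp2, or gelatinase A, is a protease of stromal and bone-forming cells that is activated at the cell surface. Its signals were 7615, 7677, 7286, 7083 and 8524 in NP replicates 1 to 5, 7986, 7507, 7456, 6583 and 5811 in the NP.P rats, 8526, 7987, 8229, 8873 and 7839.5 in the P rats and 8860.0, 9432, 8736, 9566 and 9053 in the P.NP rats. The 5 P.NP rats all lay above every NP-background rat, and the P rats overlapped the highest NP rat. Strain means were 7637 ± 552 in NP and 7069 ± 866 in NP.P rats, and 8291 ± 416 in the P and 9129 ± 359 in the P.NP rats (SD, n = 5). Mmp2 was 1.19-fold higher in the P background (log2 difference 0.25 ± 0.056, adjusted p = 0.00482), with 10 of 10 P-background rats above the median of the NP background. Against its own parental background, each congenic strain lay farther out: NP.P minus NP was -0.12 ± 0.079 and P.NP minus P was 0.14 ± 0.079, neither of which passed (adjusted p = 0.578 and 0.738).

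Mmp14, or MT1-MMP, is anchored in the membrane, cuts collagen and activates the Mmp2 proenzyme together with Timp2. Its signals were 10866, 10540.4, 11203, 11124 and 11021 in NP replicates 1 to 5, 11234, 10656, 10905, 8829 and 9715 in the NP.P rats, 13061, 9483, 12954, 11815 and 11775 in the P rats and 11649, 13060.1, 14114, 12154 and 11276 in the P.NP rats. All P.NP rats lay above the NP and NP.P rats, and so did all P rats except replicate 2, which lay among the NP.P rats. Strain means were 10951 ± 262 in NP and 10268 ± 983 in NP.P rats, and 11818 ± 1439.6 in the P and 12451 ± 1146 in the P.NP rats (SD, n = 5). Mmp14 was 1.14-fold higher in the P background (log2 difference 0.19 ± 0.063, adjusted p = 0.048). Its second probe set gave 0.035 ± 0.089 (adjusted p = 0.836), so the difference was not seen at both.

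Among the other membrane-type MMPs, Mmp16 (MT3-MMP) was 1.19-fold higher in the P background (log2 difference 0.25 ± 0.092, adjusted p = 0.0754). Its signals ran from 1220.0 to 1873 (median 1662) in the P background and from 955 to 1601 (median 1417) in the NP background, and 7 of 10 P-background rats lay above all NP-background rats. This call was lost in 9 of the 20 fits that each left out 1 array (P replicates 1, 3 and 4, NP.P replicates 1, 3 and 4, and P.NP replicates 3, 4 and 5), with an adjusted p of up to 0.129. It was also lost without the filter (adjusted p = 0.143) and at a 5% rate. Mmp15, Mmp17 and both tested probe sets of Mmp24 were not called, with differences of 0.25 ± 0.15, 0.16 ± 0.10 and, for Mmp24, 0.13 ± 0.088 and 0.096 ± 0.095. Mmp23, a protease that is released from the membrane by furin-type cleavage, was 1.21-fold higher at the probe set read (0.28 ± 0.077, adjusted p = 0.0182), where signals ran from 1517 to 2114 (median 1833) against 1053 to 1811 (median 1509). The 2 groups overlapped there, with 5 of 10 P-background rats above every NP-background rat. Its other 2 probe sets gave 0.11 ± 0.078 (adjusted p = 0.385) and -0.079 ± 0.18 (adjusted p = 0.809). Mmp19, a secreted MMP of many tissues, gave 0.21 ± 0.12 and was not called.

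Adamts7 and Adamts12 both cut COMP, a protein that links collagen fibres of cartilage and tendon. Adamts7 signals were 808, 619, 742, 764 and 663 in NP replicates 1 to 5, 755, 768, 652, 705 and 931 in the NP.P rats, 1004, 839, 982, 871 and 869 in the P rats and 921, 884, 882, 1135 and 1029.5 in the P.NP rats. Apart from the fifth NP.P rat, every P-background rat lay above every NP-background rat. Strain means were 719 ± 77.0 in NP and 762 ± 105 in NP.P rats, and 913 ± 74.6 in the P and 970.1 ± 109.9 in the P.NP rats (SD, n = 5). Adamts7 was 1.27-fold higher in the P background (log2 difference 0.35 ± 0.072, adjusted p = 0.0024). Adamts12, with -0.036 ± 0.10, was not called (adjusted p = 0.852).

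Adamts4 and Adamts5 are the aggrecanases, and Adamts1, Adamts8, Adamts9 and Adamts15 belong to the same group of proteoglycan-cutting enzymes. Adamts4 signals were 625, 666, 705, 611 and 689 in NP replicates 1 to 5, 725, 587, 775, 576 and 559 in the NP.P rats, 692, 580.3, 845, 742 and 684 in the P rats and 816, 1052, 786, 942 and 914 in the P.NP rats. All P.NP rats lay above the highest NP-background rat, while the P rats overlapped both NP-background strains. Strain means were 659 ± 40.2 in NP and 644 ± 98.5 in NP.P rats, and 709 ± 96.4 in the P and 902 ± 106 in the P.NP rats (SD, n = 5). Adamts4 was 1.23-fold higher in the P background (0.29 ± 0.078, adjusted p = 0.0148). Adamts5 was 975 ± 89.2 in NP and 765 ± 115 in NP.P rats, and 883 ± 132 in the P and 828 ± 125 in the P.NP rats, with a background difference of -0.018 ± 0.090 (adjusted p = 0.922) and -0.024 ± 0.083 at its second probe set. Adamts1 was 638 ± 61.8 in NP and 665 ± 81.3 in NP.P rats, and 672 ± 85.4 in the P and 655 ± 98.5 in the P.NP rats (0.022 ± 0.084, adjusted p = 0.894). Adamts15 and Adamts8 were not called (-0.082 ± 0.11 and -0.30 ± 0.25). Adamts8 had the widest spread of the 37 probe sets, from 131 to 933 (median 261) in the P background and from 187 to 533 (median 368) in the NP background. The highest value was P replicate 2, and the P mean was 447 ± 284 with it (SD, n = 5) and 325 ± 97.1 without it (SD, n = 4).

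Adamts9 was 1.19-fold higher in the P background (0.26 ± 0.089, adjusted p = 0.0577), with 7 of 10 P-background rats above all NP-background rats. Its signals ran from 1153 to 1776 (median 1529) against 929 to 1472 (median 1242), so the groups overlapped, and the second probe set gave 0.095 ± 0.14 (adjusted p = 0.684). The call was lost without NP replicate 3, NP.P replicate 4 or P.NP replicate 4, with an adjusted p of up to 0.109. It was also lost without the filter (adjusted p = 0.115) and at a 5% rate. Adamts9 is 1 of 2 members on chromosome 4, and in the gene order of GRCr8 it lies between Arf5 and Ppp4r2, the outermost genes that the study lists for its chromosome 4 segment; Timp4, the other, lies outside them. With the P segment on the NP background, Adamts9 was 0.20 ± 0.13 (adjusted p = 0.553), and with the NP segment on the P background 0.10 ± 0.13 (adjusted p = 0.937), so neither copy of the segment gave a call.

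Adamts10 associates with fibrillin microfibrils, and both of its probe sets were higher in the P background, by 0.30 ± 0.087 (adjusted p = 0.0241) and 0.35 ± 0.11 (adjusted p = 0.0342). At the probe set read, signals ran from 1393 to 2008 (median 1510.4) in the P background and from 1013 to 1806 (median 1270.2) in the NP background. All 10 P-background rats lay above the NP-background median, and 3 of them above every NP-background rat. Strain means were 1393 ± 272 in NP and 1237 ± 180 in NP.P rats (SD, n = 5). In the P rats the mean was 1455 ± 59.7, and in the P.NP rats 1767 ± 215. P minus NP was 0.084 ± 0.12 and was not called (adjusted p = 0.789). Fbn1, the gene of the fibrillin itself, was 0.54 ± 0.061 higher in the P background (adjusted p = 4.1e-06).

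P.NP had the highest mean of the 4 strains in all 8 genes called, and NP.P the lowest in 6 of the 8. Over the 26 genes tested, P.NP was highest in 15 (57.7%) and NP.P lowest in 11 (42.3%), where 28.8% of all probe sets tested had their highest mean in P.NP and 33.5% their lowest in NP.P. The 8 genes were chosen by the background contrast, which favours a P-background strain as the highest but not which of the pair.

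**Figure D2:**
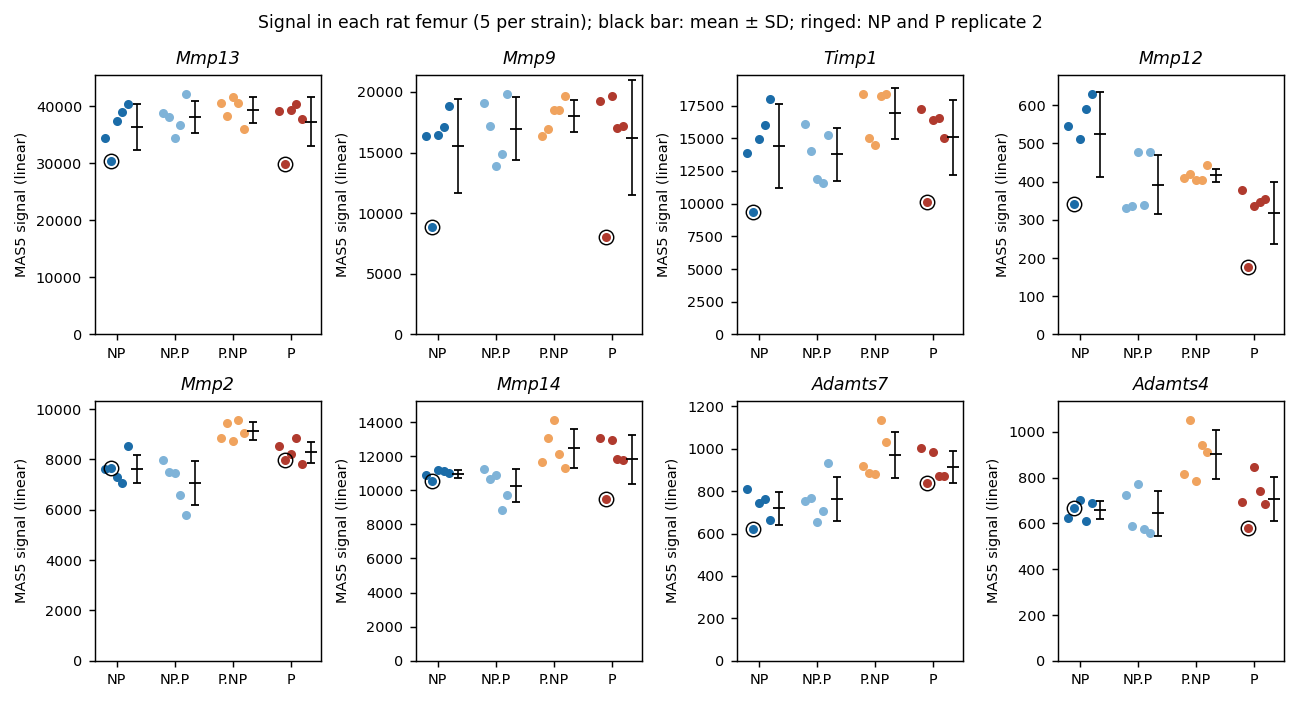
MAS5 signal (linear axis from 0) of 8 genes in each rat of the 4 strains, 5 dots per strain in replicate order, with the mean ± SD as a black bar and NP and P replicate 2 ringed. Mmp2, Mmp14, Adamts7 and Adamts4 had their highest mean in P.NP, at 9129, 12451, 970.1 and 902.0; Mmp13, Mmp9 and Timp1 overlapped across strains, with the ringed rats low.

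Some genes of the fibroblast and periosteum list were called in the same direction as these members. Postn, or periostin, was 0.45 ± 0.059 higher in the P background (adjusted p = 2.4e-05), Fbn1 as given above and Pdgfra 0.16 ± 0.049 (adjusted p = 0.0319). Thus 3 of 8 listed genes were higher and 0 lower, all 8 being above the filter. Of all probe sets tested, 11.1% were called higher and 11.3% lower. The mean centred log2 value of the list was -0.17 to 0.038 in the NP background and -0.00018 to 0.16 in the P background. For osteoblasts and bone matrix 2 of 10 genes were higher (Alpl and Phex) and 0 lower, and for osteoclasts 1 of 6 was higher (Itgb3). None of the others in these 2 lists was called. Col1a1 (-0.082), Col1a2 (-0.064) and Spp1 (-0.010) lay below 0. Bglap (0.00014), Sparc (0.0062), Ibsp (0.13), Dmp1 (0.20) and Mepe (0.19) lay above it. Among osteoclast genes Acp5 (-0.011) lay below 0, and Ctsk (0.093), Calcr (0.26), Tcirg1 (0.069) and Nfatc1 (0.10) above it. Erythroid genes were called in the other direction, with 7 of 8 lower. Without NP and P replicate 2 the osteoblast count was 3, and without P.NP replicate 2 as well it was 4, with 5 erythroid genes lower. The part of these cell types in the members' differences was not tested.

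The parental strains were compared because the study looked for genes behind their difference in bone density. They differed in 2 members. Adamts7 was 1.27-fold higher in P (0.35 ± 0.10, adjusted p = 0.0695), 1 of 37 members (2.7%) against 2.43% of all probe sets called higher. This call was lost in 6 of 20 fits that left out 1 array (NP replicates 2, 3 and 5, and P replicates 1, 3 and 4), with an adjusted p of up to 0.154, and without NP and P replicate 2 together (0.32, adjusted p = 0.145). Mmp12 was lower, again 1 of 37 (2.7%) against 2.94% of all probe sets called lower. Both shares were near those of all probe sets. The other genes called by background were not called between the parental strains. P minus NP was 0.12 for Mmp2, 0.10 for Mmp14, 0.18 for Mmp16, 0.093 for Mmp23 and 0.096 for Adamts4. For Adamts9 it was 0.30 and for Adamts10 0.084, with limma adjusted p from 0.24 to 0.789 over these genes.

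Mmp12 is the macrophage elastase. Its signals were 545, 342, 511, 589 and 629.9 in NP replicates 1 to 5, 332, 336, 476, 339 and 479 in the NP.P rats, 378, 176, 336, 347 and 354 in the P rats and 409.7, 419, 404, 404 and 444 in the P.NP rats. In the NP group 4 of the 5 rats lay above all P rats, while NP replicate 2 lay among them. Strain means were 524 ± 111 in NP and 392 ± 77.7 in NP.P rats, and 318 ± 81.0 in the P and 416 ± 16.7 in the P.NP rats (SD, n = 5), and Mmp12 in P was 0.599 of its NP level (-0.74 ± 0.19, adjusted p = 0.0351). Without NP replicate 2 and P replicate 2, which had the lowest value of each strain, the difference was -0.68 (adjusted p = 0.00215), and then NP.P minus NP was called too, at -0.55 (adjusted p = 0.0282). With all arrays NP.P minus NP was -0.41 ± 0.19 (adjusted p = 0.369) and P.NP minus P was 0.44 ± 0.19 (adjusted p = 0.608). Of 9 listed macrophage genes, 3 were called lower in P minus NP, where 2.94% of all probe sets were. These were Cd163, by 0.80 on the log2 scale (adjusted p = 0.00086), C1qb, by 0.40 (0.0322), and C1qa, by 0.33 (0.0634). None of the others was called. Of these, Csf1r (0.073) and Lyz2 (0.0044) lay above 0, and Cd14, Mrc1, Cd68 and Adgre1 below it (-0.26 to -0.17). The list median was -0.25. The mean centred log2 value of that list ran from 0.036 to 0.20 in NP and from -0.30 to -0.043 in P; its part in the Mmp12 difference was not tested.

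The chromosome 4 segment gave no member call on either background. In NP.P minus NP 0 of 37 members were called, against 2.3% of all probe sets in either direction, and in P.NP minus P again 0 of 37, against 0.231%. At an unadjusted p under 0.05 limma gave 6 members (16.2%) in P.NP minus P, above the 7.7% of all probe sets. In NP.P minus NP it gave 5 (13.5%), close to the 13.1% of all probe sets. Those 5 were Mmp24 at its second probe set (-0.41), Adamts5 (-0.36), Mmp23 (-0.26), Mmp12 (-0.41) and the second probe set of Timp3 (0.16). In P.NP minus P they were Adamts4 (0.35 ± 0.11, unadjusted p = 0.00498), Adamts8 (-0.85), Timp4 (0.48), Timp2 (0.17), Mmp12 (0.44) and Adamts10 (0.27). The Adamts8 difference was -0.54 without P replicate 2.

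Whether the effect of the P segment differed between the backgrounds was tested as an interaction, and 0 of 37 members passed, against 0.317% of all probe sets. An unadjusted p under 0.05 was found for 4 members, Mmp8, Adamts5, Timp4 and the second probe set of Mmp24, with adjusted p from 0.406 to 0.471, and for 9.71% of all probe sets, a share close to that of the members (10.8%).

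The TIMPs did not pass any test between strains. Timp1, a secreted inhibitor made by osteoblasts among other cells, had signals of 13845, 9379, 14950.2, 16009 and 18007 in NP replicates 1 to 5, 16123, 14018, 11896, 11576 and 15249 in the NP.P rats, 17251, 10145, 16366, 16533 and 15045 in the P rats and 18399, 15015, 14506, 18208 and 18345 in the P.NP rats. NP and P replicate 2 were lowest of their strains, and all 4 strains overlapped. Means were 14438 ± 3218 in NP and 13772 ± 2007 in NP.P rats, and 15068 ± 2865 in the P and 16895 ± 1958 in the P.NP rats (SD, n = 5), with a background difference of 0.18 ± 0.12 (adjusted p = 0.31). Without replicate 2 of each, the NP mean was 15703 ± 1772 and the P mean 16299 ± 920 (SD, n = 4), and the background difference was 0.18 (adjusted p = 0.144 without both arrays). Timp2, which takes part in Mmp2 activation at the cell surface, was 13424 ± 1099 in NP and 12679 ± 564 in NP.P rats, and 12824 ± 1058 in the P and 14363 ± 717 in the P.NP rats (0.057 ± 0.050, adjusted p = 0.481). Its within-strain SD, 0.0964, was the smallest of the 37 probe sets. A second Timp2 probe set differed in direction (-0.036 ± 0.19), also without a call.

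Timp3 binds to the matrix. It was 5416 ± 561 in NP and 5324 ± 310.2 in NP.P rats, and 5373 ± 577 in the P and 5253 ± 203 in the P.NP rats (-0.015 ± 0.057, adjusted p = 0.894), and its other 2 tested probe sets gave -0.098 ± 0.052 and 0.085 ± 0.11, none of them called. Timp4 was 522 ± 93.8 in NP and 584 ± 108 in NP.P rats, and 403 ± 112 in the P and 543 ± 80.8 in the P.NP rats (-0.25 ± 0.14, adjusted p = 0.241), with P replicate 1 lowest at 208 and the other P rats between 423 and 488.

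**Figure D3:**
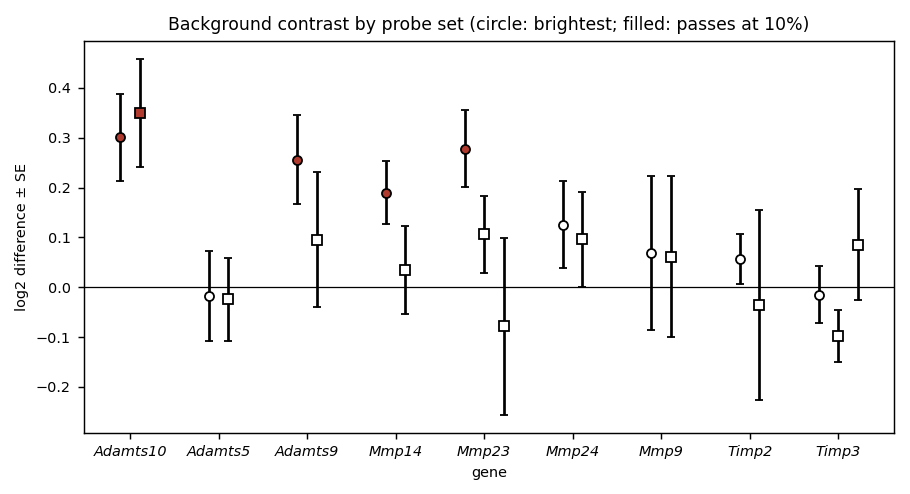
Background difference (log2, P background minus NP background, bars are standard errors) for every tested probe set of the 9 genes with more than 1, circles for the probe set read and squares for the others, filled where the adjusted p passed at 10%. Both Adamts10 probe sets passed, while Adamts9, Mmp14 and Mmp23 passed at 1 probe set each and the third Mmp23 probe set lay at -0.079.

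The collagenases and Mmp9 passed no test between strains. Mmp13, collagenase 3, is the main collagen II-cutting enzyme of hypertrophic cartilage and is also made by osteoblasts. Its signals were 34418, 30364, 37415, 39034 and 40407 in NP replicates 1 to 5, 38909, 38085, 34510.3, 36752 and 42202 in the NP.P rats, 39236, 29945, 39322, 40404 and 37783 in the P rats and 40546, 38342, 41698, 40598 and 35973 in the P.NP rats. The strains overlapped throughout, and the 2 lowest rats of all were NP and P replicate 2. Means were 36328 ± 4011 in NP and 38092 ± 2836 in NP.P rats, and 37338 ± 4236 in the P and 39431 ± 2285 in the P.NP rats (SD, n = 5; F test adjusted p = 0.742), and the background difference was 0.045 ± 0.065 (adjusted p = 0.689). Without replicate 2 of each, the NP mean was 37818 ± 2576 and the P mean 39186 ± 1076 (SD, n = 4), and the background difference was 0.052 (adjusted p = 0.523). Mmp8, the neutrophil collagenase, was 1152 ± 115 in NP and 882 ± 186 in NP.P rats, and 966 ± 217 in the P and 826 ± 358 in the P.NP rats (-0.22 ± 0.15, adjusted p = 0.359). The Mmp8 value rested on P.NP replicate 3, without which the background difference was -0.33 and passed (adjusted p = 0.0784). Mmp3, or stromelysin 1, was 353 ± 76.0 in NP and 327 ± 57.6 in NP.P rats, and 322 ± 84.9 in the P and 392 ± 52.3 in the P.NP rats (0.059 ± 0.13, adjusted p = 0.803).

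Mmp9, or gelatinase B, is made by osteoclasts and their relatives at the growth plate front. Its signals were 16404, 8831, 16449.6, 17104 and 18858 in NP replicates 1 to 5, 19121, 17156, 13855, 14858 and 19847 in the NP.P rats, 19214, 8028, 19645, 17064 and 17208 in the P rats and 16328, 16945, 18519.6, 18508 and 19629 in the P.NP rats. NP replicate 2 and P replicate 2 lay far below the other 18 rats, which were between 13855 and 19847. Means were 15529 ± 3874 in NP and 16968 ± 2603 in NP.P rats, and 16232 ± 4730.0 in the P and 17986 ± 1331 in the P.NP rats (SD, n = 5; F test adjusted p = 0.78). Without the pair, the NP mean was 17204 ± 1148 and the P mean 18283 ± 1337 (SD, n = 4). Its second probe set gave a background difference of 0.061 ± 0.16, against 0.069 ± 0.15 at the probe set read.

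Without NP and P replicate 2, 10 member probe sets were called in the background contrast in place of 9 (all probe sets: 21.9% in place of 22.5%), and 9 in the F test in place of 6 (all probe sets: 21.4% in place of 18.2%). Without P.NP replicate 2 as well, the counts were 11 (19.8%) and 10 (18.3%). Mmp12 was called lower in the P background without NP replicate 2 alone, at -0.39 (adjusted p = 0.0377). Without P replicate 1 alone it was called at -0.35 (adjusted p = 0.096). Without NP and P replicate 2 it was called at -0.29 (adjusted p = 0.0208). Without all 3 arrays it was called at -0.29 too (adjusted p = 0.0317). With all 3 arrays left out, Adamts8 was called lower too, at -0.53 (adjusted p = 0.0656), and in NP.P minus NP it was called higher, at 0.87 (adjusted p = 0.0994).

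**Figure D4:**
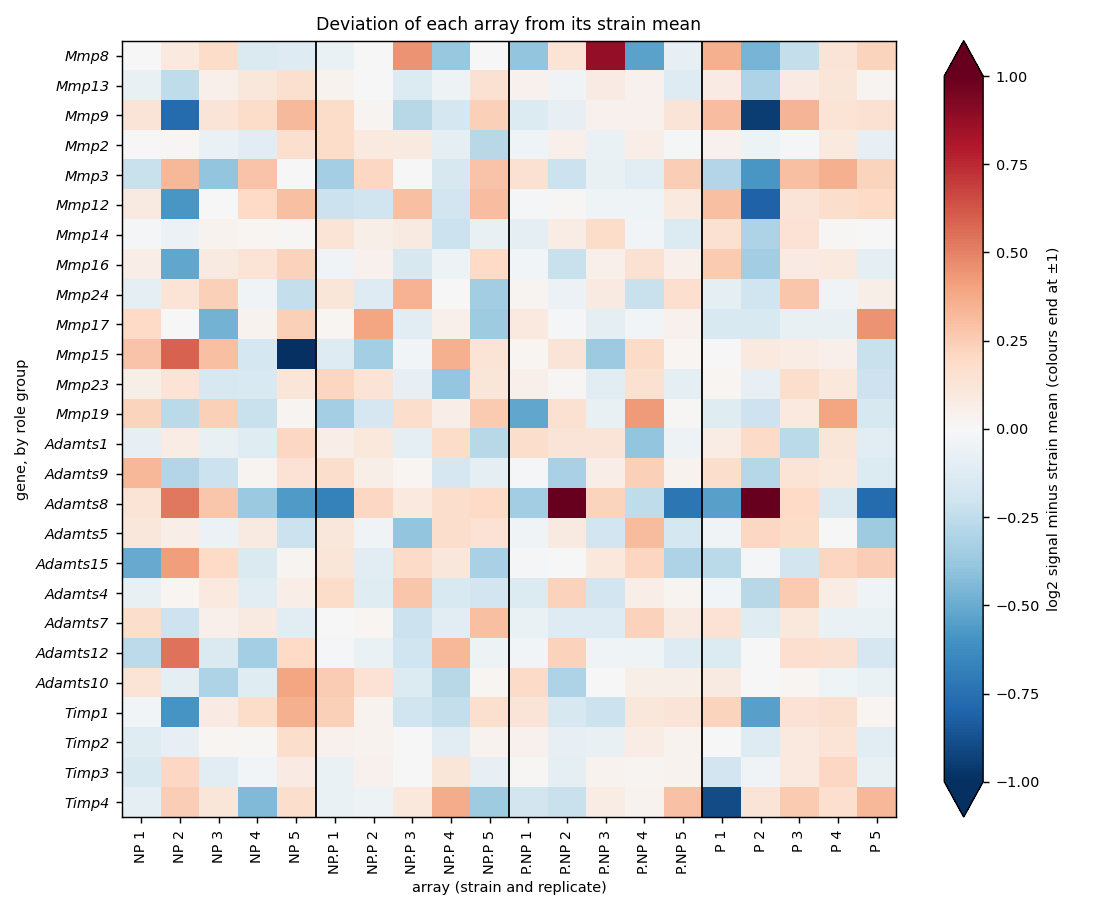
Log2 signal of the 26 genes tested (rows, by role group) in the 20 arrays (columns), each minus the mean of its strain; red is above and blue below that mean, with colours ending at ±1. The columns of NP replicate 2 and P replicate 2 hold blue cells for Mmp13, Mmp9, Mmp12, Mmp16 and Timp1, and Adamts8 was above its strain mean in both.

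Within strains, some members varied with the marker genes of a cell type. Log2 signal and marker score, each minus its strain mean, were compared over the 20 arrays for 8 pairs, with two-sided permutation p-values adjusted over the 8. Mmp13 varied with the osteoblast and bone matrix score (Pearson r = 0.88, Spearman rho = 0.854, adjusted permutation p = 8.0e-05 and 0.00016) and with the cartilage score (r = 0.845, rho = 0.768, adjusted permutation p = 8.0e-05 and 0.0004). Without the 2 arrays farthest from the median score, NP and P replicate 2, r was 0.752 and 0.642, and 0.713 and 0.561 with the strain means taken again without them.

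Timp1 varied with the osteoblast and bone matrix score (r = 0.87, rho = 0.802, adjusted permutation p = 8.0e-05 and 0.00032), and r was 0.728 without the 2 farthest arrays, the same pair, and 0.684 with the strain means taken again. Mmp8 varied with the granulocyte score (r = 0.843, rho = 0.761, adjusted permutation p = 8.0e-05 and 0.0004), and r was 0.714 without the 2 farthest arrays, NP.P replicate 4 and P.NP replicate 3. Mmp9 gave r = 0.666 with the osteoclast score (rho = 0.445, adjusted permutation p = 0.013 and 0.0812). Without the 2 arrays farthest from the median osteoclast score, NP and P.NP replicate 2, r was 0.567, but without NP and P replicate 2 it was 0.32 (adjusted permutation p = 0.263), so that relation rests on those arrays. The other 3 pairs gave r from -0.0094 to 0.115 (Mmp9 with granulocytes, Mmp14 with osteoclasts and Mmp2 with osteoblasts). Without NP and P replicate 2, Mmp14 with osteoclasts went from r = 0.041 to -0.384 (rho = -0.503, adjusted permutation p = 0.177 and 0.0552). The arrays in these pairs share their RNA and their scaling.

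**Figure D5:**
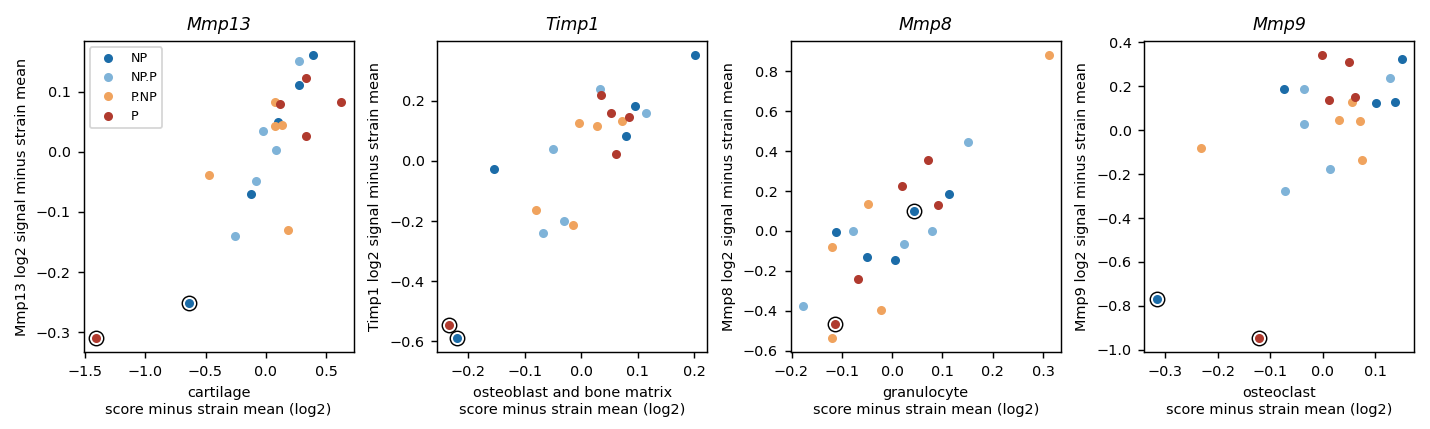
Log2 signal of Mmp13, Timp1, Mmp8 and Mmp9 against the mean log2 value of a marker list, both minus the strain mean, with 1 dot per array coloured by strain and NP and P replicate 2 ringed. The dots rise together for Mmp13 (r = 0.845), Timp1 (r = 0.87) and Mmp8 (r = 0.843), while for Mmp9 (r = 0.666) the 2 ringed arrays lie far below the other 18.

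Genes that work with these families were also counted in the background contrast, where 11.1% of all probe sets were called higher and 11.3% lower. Among 12 tested ADAM and ADAMTS-like relatives 3 were higher and 0 lower in the P background: Adam23 (0.30 ± 0.076, adjusted p = 0.0117), Adamtsl1 (0.38 ± 0.13, 0.05) and the membrane protease Adam15 (0.18 ± 0.067, 0.0776). Without NP and P replicate 2 this count of 3 was 1. Of 13 tested substrates, 2 were higher (3 without NP and P replicate 2) and 1 lower. Vcan, or versican, which Adamts4 and Adamts9 cut, was higher by 0.44 ± 0.073 (adjusted p = 0.000307) and Col4a2 by 0.18 ± 0.067 (0.0705), while Vwf, the von Willebrand factor, was lower (-0.63 ± 0.075, 8.0e-06).

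Of 10 tested regulators of these proteases outside the families, 0 were higher and 1 was lower, Furin (-0.15 ± 0.057, adjusted p = 0.0715), the proprotein convertase that activates membrane-type MMPs. Without NP and P replicate 2 these counts were 1 and 1, and without P.NP replicate 2 as well 0 and 0. Among 9 other matrix proteases of bone, Bmp1, the procollagen C-proteinase, was higher (0.25 ± 0.084, adjusted p = 0.0489), Htra1, a serine protease, was higher (0.18 ± 0.051, 0.0202), and Ctsb, the lysosomal protease cathepsin B, was lower (-0.23 ± 0.051, 0.00462). For both lists the shares of all probe sets were 11.1% higher and 11.3% lower.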

How the data were processed

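Femur RNA of 20 rats (5 NP, 5 NP.P, 5 P.NP and 5 P by the labels) was hybridized to Affymetrix Rat Genome 230 2.0 arrays, 1 per animal. The authors used the GCOS software for the images and deposited MAS5 signal intensity values on a linear scale, in which the 2% trimmed mean of each array is between 1000.32 and 1000.36; this scaling takes out differences in total RNA signal between arrays. The robust multichip average values and detection calls of the study were not used here. Of 31099 probe sets, 57 were controls; 20826 of the others carried 1 gene symbol, 436 several and 9780 none, and members were taken from those with 1. All 33 member genes matched RefSeq by gene ID with the same symbol.

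Signals under 1 (190 values, 0 in members) were set to 1 before log2. Strain means were fitted with limma 3.58.1 in R 4.3.3 over the 18625 probe sets at or above the 40th percentile of mean log2 signal, with 16 residual and 2.78 prior degrees of freedom. Contrasts were P minus NP, NP.P minus NP, P.NP minus P, background (the mean of P and P.NP minus the mean of NP and NP.P) and interaction (P minus P.NP, minus the difference of NP.P and NP). P-values were adjusted by Benjamini-Hochberg, and the scripts were tested on simulated data. Marker scores are means over a list of log2 values, each centred on its mean over all arrays. Relations used 100000 permutations (scipy 1.17.1). The number of arrays limits the precision, and no batch was named in the labels. Arrays correlated at 0.919 to 0.939 and none were identical; since the labels do not say how rats were related, p-values measure the spread between these rats.

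The members, gene lists and tests were chosen with earlier results of these data known. Named with values are the members that passed the F test or a contrast, the 12 members with the highest mean signal, Mmp2, Mmp9, Mmp13, Mmp14, Adamts1, Adamts4, Adamts5 and all Timp genes, members whose probe sets differed, and up to 4 called genes of each list outside the families. Alternatives were other filters, quantile normalization, an offset of 21.7 before log2, a mean-variance trend, a 5% rate, a replicate block, the methods' unequal-variance test, fits of only 2 strains or without each array, and the other probe sets.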

Additional observations from a re-analysis of the deposited data

Results flagged for a closer look

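In each strain, a gene's highest or lowest rat was set apart when its gap to the nearest rat exceeded 0.71 of the strain's range (Dixon's 95% limit for 5 samples). Of 104 strain groups (26 genes in 4 strains), 12 held such a rat, where chance sets apart about 1 group in 20. P replicate 2 was the low rat for Mmp9 (8028), Mmp13 (29945), Timp1 (10145) and Mmp12 (176). NP replicate 2 was the low rat for Mmp9 (8831) and Mmp16 (955). In the same 2 rats the cartilage scores were -1.58 and -0.65, and the skeletal muscle scores 0.23 and 0.40. The part of the tissue sampled in these values was not tested.

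The other 6 groups were single cases. Timp4 was low in P replicate 1 (208) and Mmp15 low in P replicate 5 (455), in which Mmp17 was high (463). P.NP replicate 2 was high for Adamts12 (749) and low for Timp3 (4896). Adamts8 was low in NP.P replicate 1 (289).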

How the results depend on the processing

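In P minus NP, 2 members were called (all probe sets: 5.36%). That count was 1 without the filter (2.33%), 1 with the filter at the 60th percentile (8.16%) and 1 at a 5% rate (3.51%). It was 0 in a fit of the 2 strains alone (3.32%) and 0 by the methods' unequal-variance test after adjustment (2.21%). Mmp12 kept its call in every fit of all 4 strains that tested it, lay below the filter at the 60th percentile, and lost its call in the fit of 2 strains (adjusted p = 0.167), in which fewer arrays estimate the spread, and by the adjusted unequal-variance test. Leaving out 1 array gave 1 to 2 calls (all probe sets: 4.06% to 6.64%). The count was 1 without NP replicate 2 and P replicate 2 (4.52%), and 1 without these and P.NP replicate 2 (4.56%). Both alternatives were chosen after seeing the data. In the F test, leaving out 1 array gave 5 to 10 calls (14.2% to 21.7%). The 10 came without P replicate 2 (17.5%), and 10 were also called without the 3 arrays (18.3%). The 9 members called by background became 7 without the filter (10.7%), 8 with the filter at the 60th percentile (31.8%) and 7 at a 5% rate (16.2%). Fits without 1 array gave 7 to 10 (19.3% to 23.8%). The 7 came without NP.P replicate 4 or P.NP replicate 4, and the 10 without NP replicate 2 or P.NP replicate 1. In NP.P minus NP the count of 0 became 1 (Mmp12) without both arrays (all probe sets: 3.15%) and 2 (Mmp12 and Adamts8) without the 3 (3.03%). By the unequal-variance test unadjusted it became 5 (10.7%), and in P.NP minus P it became 4 by that test (7.38%). The relation of Mmp9 to the osteoclast score fell to r = 0.32 without both arrays and 0.29 without the 3. The background difference of Mmp23 was -0.079 at its dimmest probe set, and the cause was not tested. With the replicate number as a block, 9 members passed the F test and 10 the background contrast, against 6 and 9 (all probe sets: 19.3% and 24%, against 18.2% and 22.5%). Mmp12 was then called lower in the P background (-0.32, adjusted p = 0.0538). The correlation of same-numbered rats ran from -0.0887 to 0.333 and was above 0.1 in 5 of 30 pairs, too few to take the numbers as pairs, but 3 of the 5, and the 3 highest (0.262 to 0.333), were among replicate 2 of NP, P and P.NP, the arrays of lowest cartilage score. Of 296 alternatives for called differences of single genes 264 kept the call, 31 lost it and 1 reversed. Of 3567 for uncalled ones, 3556 stayed uncalled and 11 gained a call.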

Other observations

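Other marker lists were counted in the background contrast, where 11.1% of all probe sets were called higher and 11.3% lower. Of 6 tested granulocyte genes 2 were lower in the P background (Lcn2, by -3.79, and Csf3r, by -0.21). The others were not called (Camp -0.092, Np4 -0.15, S100a8 0.11 and S100a9 0.016). The mean centred log2 value of the list was 0.041 to 0.58 in the NP background and -0.54 to -0.11 in the P background. Lcn2 had the largest difference of the 6, so this gap between the backgrounds rests mostly on it. Mmp8, the neutrophil collagenase, was not called with all arrays (-0.33 and adjusted p = 0.0784 without P.NP replicate 3). Of 9 macrophage and monocyte genes 3 were lower (Cd163, C1qa and C1qb) and 1 higher (Csf1r). Without NP and P replicate 2 the granulocyte count was 1 lower, and without P.NP replicate 2 as well the macrophage count was 1 lower and the endothelial count 1 higher. Of 8 endothelial genes 2 were higher with all arrays (Tek and Emcn) and 1 lower (Vwf), and of 9 skeletal muscle genes 1 was higher (Myh1). Of 6 hypertrophic cartilage genes 1 was higher, Alpl, which the osteoblast and bone matrix list also holds. The others were not called (Col10a1 -0.19, Ihh -0.20, Spp1 -0.010, Pth1r 0.082 and Panx3 0.19). None of 12 cartilage genes was called by limma, and their median difference was -0.19 with all arrays, -0.049 without NP and P replicate 2 (1 gene called higher) and 0.024 without P.NP replicate 2 as well (1 higher).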
